A study of Mus musculus with 447 samples.

Results

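The collagen chain genes were taken as all genes whose symbol is Col, a number, the letter a and a number, with nothing after it; 44 of the 40824 genes in the deposited tables met this rule. They were followed in single GFP-positive cells of the fetal mouse pancreas (stage E15.5), each read by Smart-seq3, a plate method that sequences full-length polyadenylated RNA of 1 cell per well. The cells belonged to 2 genotypes. Pdx1CreNgn3KONeurod1OE (Ngn3KO below, 235 cells) combined Neurod1 overexpression, switched on by a Cre recombinase under Pdx1 control, with deletion of floxed Ngn3 (Neurog3). Pdx1CreNeurod1OE (Neurod1OE below, 212 cells) had the same driver and overexpression without that deletion. No group without Neurod1 overexpression in its genotype was analysed here, so every value comes from a Neurod1 overexpression genotype. The level of Neurod1 RNA differed between cell states and is given below. The inducible Pdx1 driver acts in the pancreatic epithelium, outside the stroma that makes most pancreatic collagen, and what the GFP marks was taken only as the labels give it. Titles carry a set number, 2 or 3, whose meaning is not stated; 30 Ngn3KO and 95 Neurod1OE cells were of set 3 and the rest of set 2.

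Collagens are secreted proteins built from alpha chains that wind around each other in a right-handed helix, and each helical stretch has a glycine at the start of every repeat. Fibrillar chains (types I, II, III, V, XI, XXIV and XXVII) form cable-like fibrils, the fibril-associated chains (types IX, XII, XIV and others) decorate them, and type IV forms the sheet of the basement membrane on which epithelia rest. Type VI makes beaded microfilaments, types VIII and X hexagonal nets, and types XV and XVIII are basement membrane proteoglycans whose tail can be cut off as endostatin or its relative. In the developing pancreas the epithelium lies on a laminin and type IV collagen basement membrane, and fibril collagen comes mainly from the surrounding mesenchyme. Several types are built from partner chains, such as Col1a1 with Col1a2 or Col4a1 with Col4a2. Partner chains are therefore set side by side here.

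The repeat that defines the family can be read in the coding sequence. For the 7 chains on which the results below turn, 90 bases (30 codons) of the longest uninterrupted run of glycine repeats are shown, 5′ to 3′ on the coding strand, from the GENCODE M21 transcript with the longest coding sequence on mm10; capitals mark the glycine codons.
Col1a2: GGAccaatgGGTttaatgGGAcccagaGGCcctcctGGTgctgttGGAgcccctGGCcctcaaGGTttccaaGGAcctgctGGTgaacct
Col1a1: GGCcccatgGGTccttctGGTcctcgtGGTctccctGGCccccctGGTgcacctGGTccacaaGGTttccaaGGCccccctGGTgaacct
Col2a1: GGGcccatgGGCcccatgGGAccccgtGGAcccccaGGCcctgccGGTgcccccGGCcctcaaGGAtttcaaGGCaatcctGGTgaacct
Col9a2: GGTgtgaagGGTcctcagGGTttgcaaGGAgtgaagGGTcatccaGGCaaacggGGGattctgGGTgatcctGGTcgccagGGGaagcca
Col4a1: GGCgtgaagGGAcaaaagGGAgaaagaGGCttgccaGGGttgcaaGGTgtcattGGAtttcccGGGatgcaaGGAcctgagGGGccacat
Col4a2: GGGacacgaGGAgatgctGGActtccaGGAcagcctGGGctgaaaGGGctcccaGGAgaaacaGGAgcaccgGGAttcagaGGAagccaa
Col18a1: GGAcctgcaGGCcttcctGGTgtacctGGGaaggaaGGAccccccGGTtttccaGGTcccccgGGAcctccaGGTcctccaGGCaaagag
Each stretch was chosen to hold 10 glycine codons at the same spacing, so every pair shares the GG of these codons. Among the stretches shown, the fibrillar chains are the most alike: Col1a2 and Col1a1 share 63 of 90 bases, Col2a1 shares 67 of 90 with each of them, and all other pairs share between 36 and 49. Uninterrupted runs reach 339 repeats in Col1a2 and Col2a1, 338 in Col1a1, 66 in Col4a2, 40 in Col4a1 and 30 in Col18a1, and type IV and XVIII helices are known to be interrupted. The genes lie at chr6:4504814-4541544 (+ strand, Col1a2), chr11:94936224-94953042 (+, Col1a1), chr15:97975602-98004695 (−, Col2a1), chr4:121039385-121055322 (+, Col9a2), chr8:11198423-11312826 (−, Col4a1), chr8:11312805-11449287 (+, Col4a2) and chr10:77052178-77166548 (−, Col18a1). Col4a1 and Col4a2 start head to head, with annotated starts that overlap by 22 bases.

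The values were raw reads per gene and cell, summed over the cells of a group and given as CPM, reads per 1000000 of the summed total. Cell totals had a median of 476838 reads, lowest 25769 and highest 2788066; in set 2 the median was 344128 in Ngn3KO and 572744 in Neurod1OE cells, in set 3 728074 and 695079. Cells were divided by state: Gcg cells had at least 1000 CPM of the glucagon gene Gcg, Cpa1 cells at least 1000 CPM of Cpa1 (the acinar enzyme carboxypeptidase A1), and cells with neither the rest. In set 2 all were Gcg cells except 3 Ngn3KO and 4 Neurod1OE cells with neither and 1 and 2 cells over both limits; in set 3, 27 Ngn3KO and 15 Neurod1OE cells were Cpa1 cells, and Neurod1OE had a further 31 Gcg cells and 48 cells with neither. Pan-endocrine markers summed to a median of 9128 CPM in Ngn3KO and 9668 CPM in Neurod1OE Gcg cells of set 2. Acinar markers summed to medians of 38688 and 17852 CPM in the Cpa1 cells of set 3. The acinar list holds Cpa1 itself, the gene that set the state, with medians of 10741 and 3783 CPM in those cells. That part of the acinar sum follows from the limit. No animal is named in the labels, so each genotype is 1 sample, no p-value was computed, and folds have no replicate check. Sex moved with genotype: in set 2 no Ngn3KO cell was male by its Xist and Y-linked reads, against 66 female and 50 male Neurod1OE cells, while all 30 Ngn3KO cells of set 3 were male, against 66 male and 29 female Neurod1OE cells. Neurog3 stood at 3.03 CPM in Ngn3KO and 4.07 CPM in Neurod1OE Gcg cells of set 2. Which bases the floxed allele removes is not stated, so this level does not check the genotype. Neurod1 RNA had 293.7 CPM in Ngn3KO and 346.8 CPM in Neurod1OE Gcg cells of set 2. In Cpa1 cells of set 3 it had only 11.5 CPM in Ngn3KO and 37.8 CPM in Neurod1OE. The Neurod1OE cells of set 3 had 261.1 CPM in Gcg cells and 293.6 CPM in cells with neither.

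Among the groups of 10 or more cells, collagen chain reads were most abundant in cells with neither Gcg nor Cpa1 and least abundant in Cpa1 cells. A chain was counted as measured in a group that reached 10 CPM and had reads in 10% or more of its cells. By this rule 17 of the 44 chains were measured in at least 1 group of 10 or more cells, 27 never were, and all 44 had at least 1 read in some cell. The measured ones were 5 of 11 fibrillar chains (Col1a2, Col2a1, Col11a1, Col11a2, Col27a1), 4 of 9 fibril-associated chains (Col9a1, Col9a2, Col9a3, Col14a1), 3 of 6 type IV chains (Col4a1, Col4a2, Col4a4), 2 of 6 type VI chains (Col6a3, Col6a5), and Col8a2, Col18a1 and Col26a1. All 44 chains together made 382 CPM in Ngn3KO and 388 CPM in Neurod1OE Gcg cells of set 2, and 132.6 and 189.2 CPM in the Cpa1 cells of set 3. In Neurod1OE cells of set 3 they reached 1026 CPM in cells with neither, against 355 CPM in Gcg cells. The number of measured chains was 8 in each genotype's Gcg cells of set 2, 3 and 5 in Ngn3KO and Neurod1OE Cpa1 cells, 13 in cells with neither and 10 in Gcg cells of set 3.

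**Figure D1:**
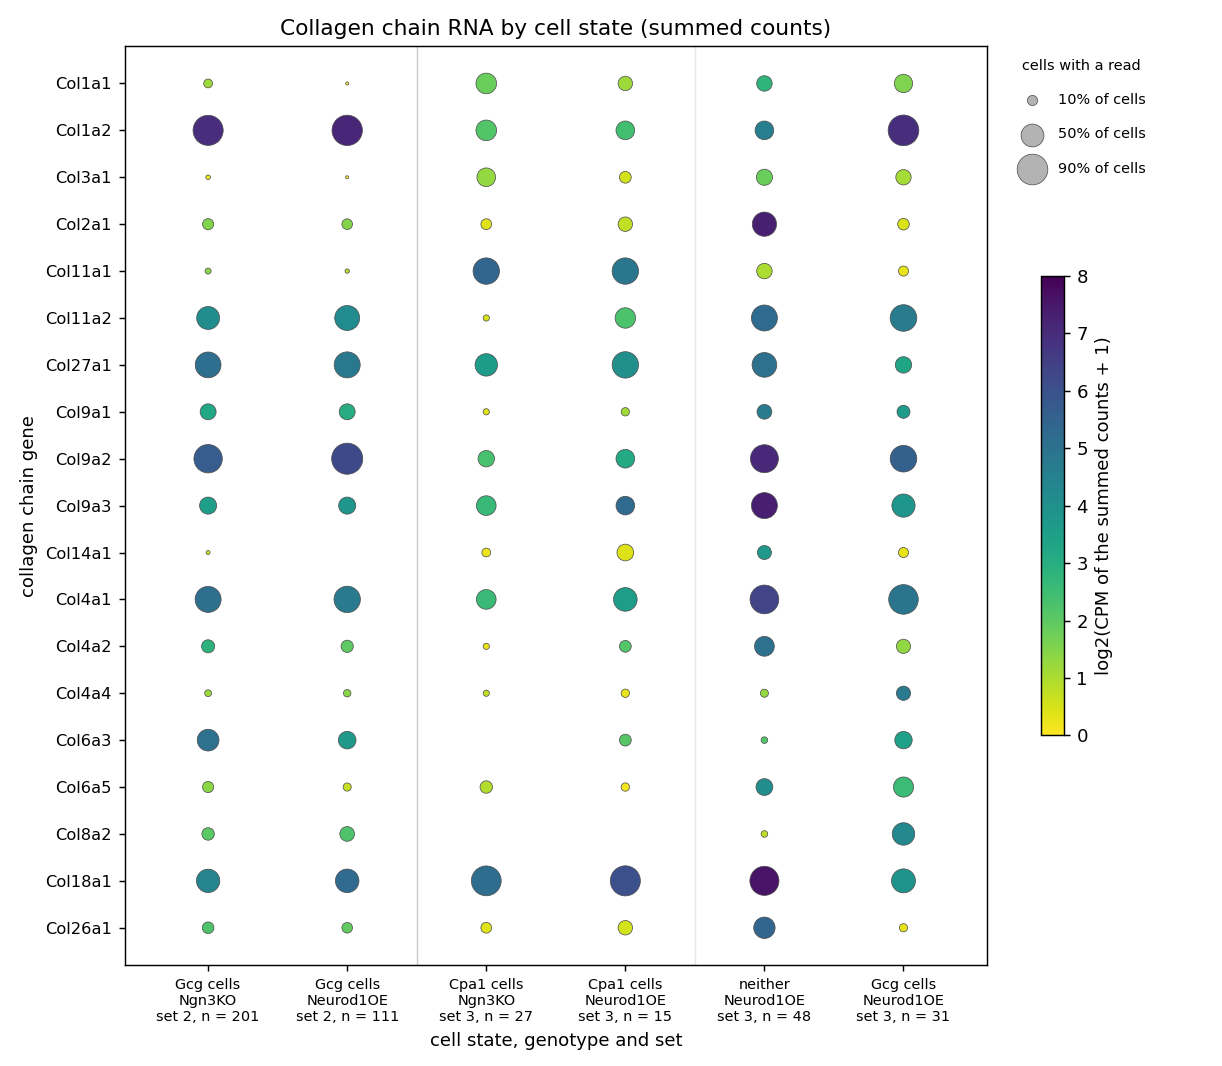
Level of the 17 measured chains plus Col1a1 and Col3a1 in 6 groups of cells: colour is log2 of the group's CPM plus 1, circle area the share of cells with at least 1 read, and no circle means no read. Col1a2 is dark in every Gcg group, Col11a1 in the Cpa1 groups, and Col2a1, Col9a3 and Col18a1 in the cells with neither (156.85, 160.65 and 190.86 CPM).

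Gcg cells carried the minor chain of type I collagen at a level far above that of its partner. Col1a2, the alpha-2 chain that in the protein joins Col1a1 chains, had 126.92 CPM in Ngn3KO Gcg cells of set 2 (95% interval 124.4 to 129.4, exact Poisson, counting error only) and 140.77 CPM in Neurod1OE Gcg cells (138.001 to 143.57). Reads of it were found in 87.06% of Ngn3KO and 88.3% of Neurod1OE cells; with every cell thinned to 165298 reads, 82.5% and 78.4% of the cells deep enough had one. Single cells ran from 0 to 1058 CPM with a median of 83.6 in Ngn3KO, and from 0 to 1023 with a median of 81.1 in Neurod1OE, so that the genotypes overlapped throughout. Col1a1, the major type I chain, had 98 reads in 15 Ngn3KO cells (1.26 CPM) and 2 reads in 1 Neurod1OE cell (0.03 CPM). Col3a1, the chain of type III collagen that usually runs with type I, had 12 reads in 4 Ngn3KO cells and 1 read in 1 Neurod1OE cell. Col1a1 was read in 14 of the Ngn3KO cells that had Col1a2 and in 1 such Neurod1OE cell. Per kilobase of transcript, the level of Col1a2 was 111.7 times that of Col1a1 in Ngn3KO cells. Gcg cells of set 3 showed a like gap in level, with Col1a2 at 121.67 CPM in 28 of 31 Neurod1OE cells and Col1a1 at 1.93 CPM. Col1a1 was read in 10 of these 31 cells, all with Col1a2, and Col3a1 in 7, larger shares than in set 2. The 1 Ngn3KO Gcg cell of set 3 had 255 CPM of Col1a2.

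Markers of mesenchyme did not accompany this Col1a2 level. Summed over 15 mesenchyme markers, the median Gcg cell of set 2 had 0 CPM in both genotypes, with highest values of 205.5 CPM in Ngn3KO and 581 CPM in Neurod1OE; Pdgfra, Twist1, Foxf1, Barx1, Tcf21 and Thy1 had no read in the Gcg cells of either genotype. Across cells the rank correlation of Col1a2 with Gcg was 0.20 in Ngn3KO and 0.38 in Neurod1OE Gcg cells, and that with the cell's total reads was −0.03 and 0.00. These correlations are across cells of 1 sample each and describe those cells only.

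**Figure D2:**
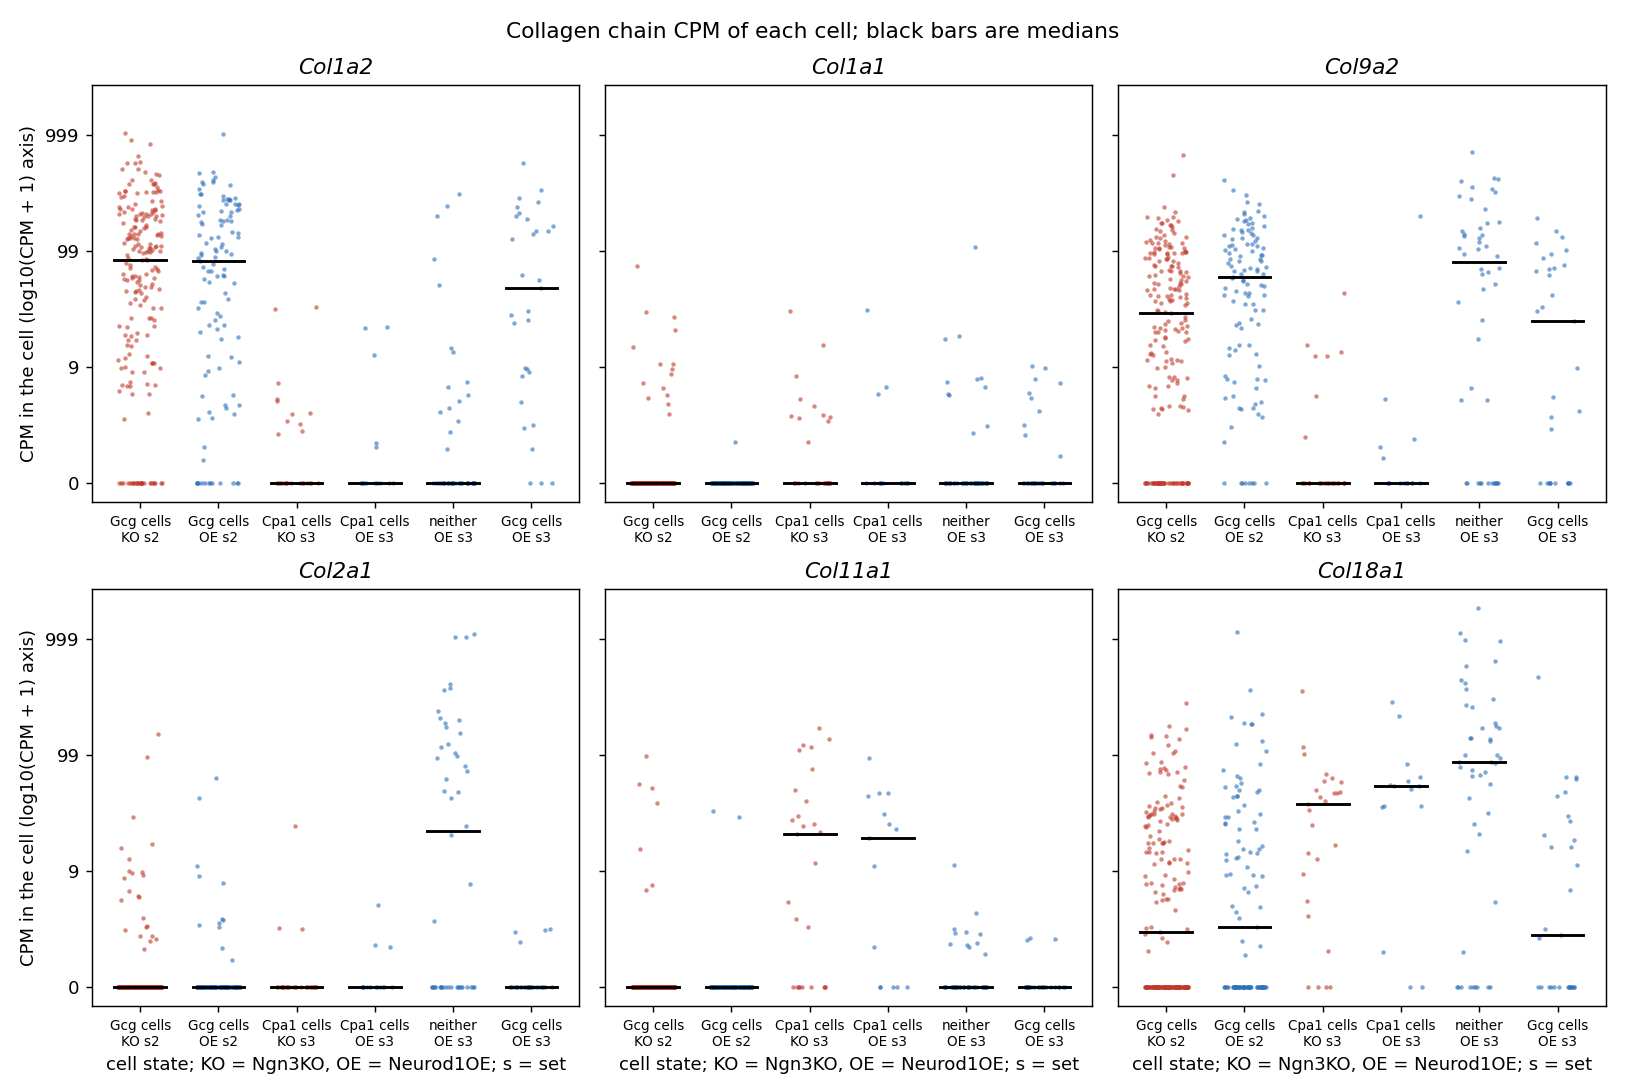
CPM of 6 chains in each cell on a log10(CPM + 1) axis, by cell state, genotype (KO, Ngn3KO; OE, Neurod1OE) and set (s2, s3); each point is 1 cell and black bars are medians. Col1a2 medians are 83.6 and 81.1 CPM in Ngn3KO and Neurod1OE Gcg cells of set 2 and 0 in both Cpa1 groups, while Col2a1 spreads upward in the cells with neither and Col11a1 in the Cpa1 cells.

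Other fibrillar chains in Gcg cells were Col27a1 and Col11a2. Col27a1, a fibrillar chain best known from cartilage, had 34.08 CPM in Ngn3KO and 25.99 CPM in Neurod1OE cells of set 2, in 63.7% and 64.9% of cells. Col11a2, which in type XI collagen joins Col11a1 and a type II chain, had 16.25 and 17.06 CPM, in 50.2% and 59.5% of cells. Its partners were nearly absent: Col11a1 was found in 7 Ngn3KO and 2 Neurod1OE cells (1.65 and 0.86 CPM), and Col2a1 in 24 and 12 cells (1.88 and 1.77 CPM). Col11a2 and Col11a1 were read together in 5 Ngn3KO cells and 1 Neurod1OE cell.

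Type IX collagen, a short heterotrimer that sits on the surface of type II fibrils, was represented by all of its chains, with Col9a2 in front. Col9a2 had 49.79 CPM in Ngn3KO Gcg cells of set 2 and 74.41 CPM in Neurod1OE Gcg cells. It was read in 77.1% and 92.8% of cells, or 73.1% and 86.5% of the thinned cells, with medians of 28.2 and 59.04 CPM per cell. Both the summed level and the share were lower in Ngn3KO, and the ranges of single cells, 0 to 679 CPM in Ngn3KO and 0 to 408 CPM in Neurod1OE, overlapped. Col9a3 had 10.79 and 12.93 CPM and Col9a1 8.43 and 7.13 CPM in the same cells. Per kilobase, the level of Col9a2 was 7.74 times that of Col9a1 and 4.81 times that of Col9a3 in Ngn3KO, and 13.7 and 5.99 times in Neurod1OE. Col9a3 shares 6.07% of its exon bases with another annotated gene, and the strand setting of the counting is not stated.

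Among the basement membrane chains, Col4a1 stood far above Col4a2, the partner with which it forms the common type IV trimer. Col4a1 had 33.75 CPM in Ngn3KO and 25.58 CPM in Neurod1OE Gcg cells of set 2, in 64.7% and 66.7% of cells. Col4a2 had 6.24 and 2.91 CPM, in 33 and 16 cells. Both chains were read in the same cell in 28 Ngn3KO and 9 Neurod1OE cells, and per kilobase the level of Col4a1 was 5.28 and 8.56 times that of Col4a2. The chains of the specialised type IV networks were sparse: Col4a5 had 4.91 and 4.26 CPM, Col4a6 no read in either genotype's Gcg cells, and Col4a4 1.31 and 1.66 CPM. Col4a3 and Col4a4, which are partners in kidney and cochlear basement membranes, were never read in the same cell of any group shown. In Gcg cells of set 2, Col4a3 was read in only 5 Ngn3KO and 2 Neurod1OE cells and Col4a4 in 9 and 6. With so few cells, the lack of overlap does not show that the 2 chains exclude each other.

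Type VI microfilaments need Col6a1, Col6a2 and another chain such as Col6a3, and only Col6a3 had a level in Gcg cells. Col6a3 had 32.17 CPM in Ngn3KO and 11.83 CPM in Neurod1OE Gcg cells of set 2, in 45.3% and 29.7% of cells (45.03% and 24.3% of the thinned cells). One Ngn3KO cell at 604 CPM held 36.4% of the genotype's Col6a3 reads; the highest Neurod1OE cell had 190.7 CPM and held 12.3%. Col6a1 was read in 7 and 3 of these cells and Col6a2 in 5 and 2. Col6a3 RNA therefore appeared mostly in cells without a read of either partner.

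Col18a1, the type XVIII proteoglycan chain of epithelial and vascular basement membranes, had 19.98 CPM in Ngn3KO and 37.09 CPM in Neurod1OE Gcg cells of set 2. The shares of cells with reads were close, 52.2% and 53.2% (50.3% and 47.7% of the thinned cells), and the medians were 2.003 and 2.29 CPM per cell. The difference in the sums lay in the upper cells, with a highest cell of 284 CPM in Ngn3KO and 1164 CPM in Neurod1OE, a cell that held 19.5% of the Neurod1OE reads.

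Between genotypes in the Gcg cells of set 2, 8 chains were measured; 1 was at least 2-fold higher in Ngn3KO, none was at least 2-fold lower and 7 lay within 2-fold, against 0.921% and 1.44% of all 9986 genes measured by the same rule. The chain past 2-fold was Col6a3, with a log2 ratio of 1.37 on the scale of CPM plus 1. That call depended on few cells: the log2 ratio was 0.93 without the top Col6a3 cell of each group, 0.73 with each cell weighted equally and 0.78 within female cells, all under 2-fold. The log2 ratios of the others were −0.86 for Col18a1, −0.57 for Col9a2, −0.24 for Col9a3, −0.15 for Col1a2, −0.07 for Col11a2, 0.38 for Col27a1 and 0.39 for Col4a1. The median log2 ratio of the 8 was −0.11, beside −0.06 over all genes.

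Taking all cells of set 2 without regard to state added the few cells outside the Gcg class and gave 9 measured chains, of which 1 was higher and 1 lower in Ngn3KO, against 0.859% and 1.67% of 10010 genes. Col6a3 was again the higher one (35.02 CPM in Ngn3KO, 10.96 CPM in Neurod1OE, log2 ratio 1.59), with 0.88 when cells were weighted equally. Col18a1 was the lower one (19.51 and 46.98 CPM, log2 ratio −1.23), with −0.99 without the top cell of each group. The log2 ratio of Col6a3 in set 2 also differed with the level of the predicted gene Gm12338. Among cells with at least 10 CPM of Gm12338 it was 3.09 (37.9 CPM of Col6a3 in Ngn3KO, 3.57 CPM in Neurod1OE). Among the others it was 0.73 (31.4 and 18.6 CPM). The Ngn3KO sums hold the top Col6a3 cell described above, and this split by Gm12338 was not repeated without it. The part of this gene in the Col6a3 ratio was not tested.

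Of the genes that make and handle collagen, 1 was higher and 2 were lower in these Gcg cells, against 0.921% and 1.44% of all genes. Of 15 folding and modifying genes found in the tables, 12 were measured and none was 2-fold apart; P4ha1, a prolyl hydroxylase subunit, had 48.8 CPM in Ngn3KO and 58.1 CPM in Neurod1OE. Of 5 measured processing and crosslinking genes, 1 was higher: Loxl2, a lysyl oxidase, with 11.02 CPM in Ngn3KO and 1.97 CPM in Neurod1OE. Of 7 measured basement membrane partners, 1 was lower: Agrn (agrin), with 4.58 and 15.8 CPM. Of 6 measured fibril partners, 1 was lower: Dcn (decorin), with 3.55 and 12.1 CPM. Loxl2, Agrn and Dcn stood not far above the limit of 10 CPM. Unlike Col6a3, they were not checked without their top cells, with equal cell weights or within female cells. Neither of the 2 measured collagen receptors was past 2-fold, Ddr1 standing at 179.7 and 205.3 CPM, and no collagen-degrading gene was measured.

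**Figure D3:**
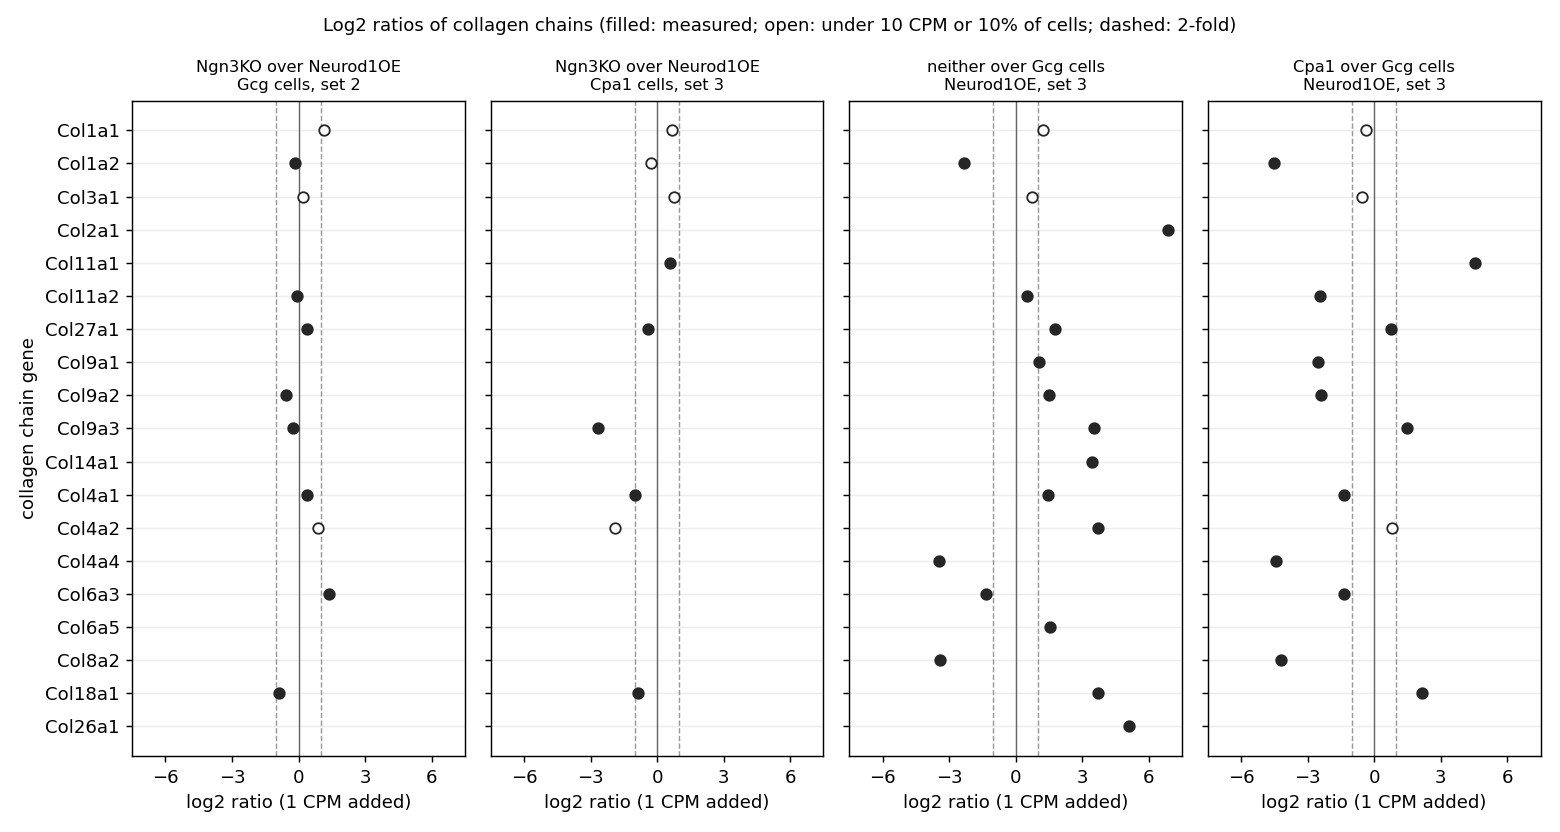
Log2 ratio (1 CPM added) of each chain in 4 comparisons; filled points are chains measured in at least 1 of the groups, open points fall short of that, chains with no point were not drawn for that comparison, and dashed lines mark 2-fold. In Gcg cells of set 2 every filled point but Col6a3 (1.37) lies within the lines, whereas cells with neither over Gcg cells run from −3.45 (Col4a4, for which 1 Gcg cell held 67.1% of the reads) to 6.86 (Col2a1).

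Col11a1 and Col18a1 had the highest levels of the chains in Ngn3KO Cpa1 cells, and Col18a1, Col9a3 and Col11a1 in Neurod1OE Cpa1 cells. In set 3, Col11a1, the fibril-nucleating type XI chain, had 42.12 CPM in Ngn3KO Cpa1 cells (95% interval 39.3 to 45.05) and 27.73 CPM in Neurod1OE Cpa1 cells (25.3 to 30.3). It was read in 18 of 27 and 10 of 15 cells, 66.7% in each, with medians of 20.03 and 18.4 CPM and highest cells of 171.1 and 93.5 CPM, so the groups overlapped. Its partner Col11a2 was read in 1 Ngn3KO cell and 6 Neurod1OE cells (0.40 and 3.82 CPM). Col18a1 had 34.93 and 64.75 CPM, in 23 and 13 cells, with medians of 37.05 and 53.1 CPM. Col27a1 had 11.15 and 15.26 CPM. Type I and III chains were low: Col1a2 had 3.47 and 4.39 CPM, Col1a1 2.58 and 1.25 CPM, and Col3a1 1.44 and 0.46 CPM. Per kilobase, the level of Col1a2 was 1.49 and 3.88 times that of Col1a1. The Ngn3KO Cpa1 cells with a Col1a1 read numbered 11 of 27, against 3 of 15 in Neurod1OE.

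Of the 5 chains measured in Cpa1 cells, none was at least 2-fold higher in Ngn3KO and 2 were lower, against 3.88% and 19.5% of 9517 genes. Neither lower chain held without single cells. Col9a3 had 5.10 CPM in Ngn3KO and 37.53 CPM in Neurod1OE (log2 ratio −2.66), but 1 Neurod1OE cell held 86.3% of that group's Col9a3 reads, and the log2 ratio was −0.55 without the top cell of each group and 0.17 when Cpa1 cells were taken from 2000 CPM. Col4a1 had 4.96 and 10.99 CPM (log2 ratio −1.01); 1 Neurod1OE cell held 87.6% of its reads, and the log2 ratio was 0.98 without the top cells and −0.72 with TMM scaling. The others lay within 2-fold, at 0.59 for Col11a1, −0.42 for Col27a1 and −0.87 for Col18a1. The median log2 ratio over all genes was itself −0.36 here, so Col27a1 lay near the middle of all genes and Col11a1 above it. Marker levels differed too: acinar markers summed to a median of 38688 CPM (12020 to 103997) in Ngn3KO and 17852 CPM (3576 to 78598) in Neurod1OE Cpa1 cells, pan-endocrine markers to 124.8 CPM (28.2 to 5523) and 227 CPM (33.9 to 25186), and mesenchyme markers to 75.01 CPM (0 to 1149) and 31.6 CPM (0 to 280). Of the 15 mesenchyme markers, 7 had no read in Ngn3KO and 9 none in Neurod1OE Cpa1 cells, Pdgfra, Twist1 and Tcf21 among both. Their part in the collagen values was not tested.

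The machinery genes of Cpa1 cells are set against 3.88% of all genes higher and 19.5% lower. Of them, 9 folding genes were measured and 1 was lower in Ngn3KO, the collagen galactosyltransferase Colgalt1, with 8.62 CPM in Ngn3KO and 57.3 CPM in Neurod1OE. Bmp1, the protease that trims procollagen ends, was the 1 of 2 measured processing genes that was lower (22.6 and 47.5 CPM). Lamb2 was the 1 of 7 basement membrane partners that was lower (8.42 and 21.2 CPM), and 2 of 4 fibril partners were lower, Mfap2 (1.14 and 20.5 CPM) and Fbln1 (19.7 and 49.8 CPM). No gene of these lists was higher.

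Neurod1OE cells of set 3 held both states (Cpa1 cells 6 male and 9 female, Gcg cells 26 male and 5 female). Their Cpa1 cells and Gcg cells led with different fibrillar chains. Col11a1 had 27.73 CPM in Cpa1 cells and 0.22 CPM in Gcg cells (log2 ratio 4.55), whereas Col1a2 had 4.39 and 121.67 CPM (−4.51) and Col11a2 3.82 and 25.27 CPM (−2.45). The fibrillar chain Col27a1 lay within 2-fold, at 15.26 and 8.65 CPM (0.75). Of 12 chains measured, 3 passed 2-fold upward in Cpa1 cells and 8 downward, against 19.3% and 26% of 10683 genes. Col18a1 was higher (64.75 and 13.62 CPM, log2 ratio 2.17), in 86.7% of Cpa1 and 54.8% of Gcg cells. Col9a3 was also called higher (37.53 and 12.81 CPM), but its log2 ratio of 1.48 became −0.72 without the top cell of each group and −1.29 with states cut at 2000 CPM.

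The lower chains in Cpa1 cells came from several families. Col4a4, a chain of the specialised basement membrane, had 0.23 CPM in Cpa1 and 25.58 CPM in Gcg cells (log2 ratio −4.44), although 1 Gcg cell held 67.1% of the Gcg reads. Col8a2, a short chain of hexagonal nets known from Descemet's membrane of the eye, had no read in 15 Cpa1 cells and 17.65 CPM in 15 of 31 Gcg cells. Its log2 ratio with 1 CPM added was −4.22. The Gcg level was 103.3 times a floor of 3 counts over the summed Cpa1 group. That floor treats reads as independent and is not a lower limit across cells. Type IX chains were lower as well, with Col9a2 at 8.09 and 46.99 CPM (−2.40) and Col9a1 at 1.14 and 11.38 CPM (−2.53). Col6a3 (3.36 and 10.30 CPM, −1.37) and Col4a1 (10.99 and 29.34 CPM, −1.34) were nearer the limit and lay within 2-fold with states cut at 2000 CPM, at −0.94 and −0.88. Without the top cell of each group, Col4a4, Col6a3 and Col9a1 no longer reached 10 CPM in either state. The part of sex in these ratios was not tested. The median log2 ratio of the 12 chains was −1.89, beside −0.21 over all genes.

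Machinery genes passed 2-fold in both directions between these states, where 19.3% of all genes were higher and 26% lower. Of 13 folding and modifying genes, 5 were higher and 5 lower in Cpa1 cells; the collagen chaperone Serpinh1 had 232 CPM in Cpa1 and 49.8 CPM in Gcg cells, Ppib (cyclophilin B, a folding isomerase) 473 and 130.6 CPM, and Colgalt2 1.03 and 20.6 CPM. Of 8 basement membrane partners, 3 were higher and 1 lower, with Lama5 (laminin alpha-5) at 58.1 and 8.42 CPM. Of 3 processing genes, 2 were lower, Bmp1 at 47.5 and 212 CPM and Loxl1 without a read in Cpa1 cells, against 27.4 CPM in Gcg cells. The collagen receptor Ddr1 was lower too, at 79.1 and 254 CPM. Of 5 fibril partners, 1 was higher (Fbln1, 49.8 and 7.03 CPM) and 3 lower, and the 1 measured degradation gene, Timp3, was higher (18.3 and 3.32 CPM).

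Cells with neither Gcg nor Cpa1 had the largest share of collagen chain reads among the 6 groups compared, and led with other chains. Of 16 chains measured in Neurod1OE cells of set 3, 11 were at least 2-fold higher in the 48 cells with neither than in the 31 Gcg cells and 4 were lower, against 19.2% and 12.3% of 10839 genes. The median log2 ratio of the 16 was 1.53, beside 0.18 over all genes. Without 2 cells described below that also carried Sox10, 9 were higher and 4 lower, against 18.9% and 12% of 10786 genes.

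Col2a1, the chain of cartilage type II collagen, showed the largest log2 ratio of the measured chains. It had 156.85 CPM (95% interval 152.4 to 161.4) in cells with neither and 0.36 CPM in Gcg cells (log2 ratio 6.86), and was read in 27 of 48 and 4 of 31 cells. Single cells with neither ran from 0 to 1111 CPM with a median of 21.5, while no Gcg cell passed 2.22 CPM. The groups therefore overlapped only at the low end, where 21 cells with neither had no read. One cell held 30.5% and 3 cells 54.3% of the Col2a1 reads.

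Type IX chains, which bind type II fibrils, were high in the same cells. Col9a3 had 160.65 CPM in cells with neither and 12.81 CPM in Gcg cells (log2 ratio 3.55), with medians of 57.7 and 1.023 CPM. Col9a2 had 135.06 and 46.99 CPM (log2 ratio 1.503), with medians of 80.7 and 24.3 CPM. Col9a1 had 24.69 and 11.38 CPM, but its log2 ratio of 1.05 was 0.93 with TMM scaling and 0.47 with states cut at 500 CPM. Per kilobase, the level of Col9a2 was 0.876 times that of Col9a3 in cells with neither, where it had been 3.82 times in the Gcg cells of the same set. Col11a2, which showed a log2 ratio of 0.52 (36.67 and 25.27 CPM), and Col11a1, at 0.96 and 0.22 CPM, did not follow.

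Col18a1, Col4a2 and Col4a1, chains of basement membranes, were higher in cells with neither, while Col4a4 was lower. Col18a1 had 190.86 CPM in cells with neither and 13.62 CPM in Gcg cells (log2 ratio 3.71), in 81.3% and 54.8% of cells, with medians of 87.04 and 1.81 CPM and highest cells of 1867 and 472 CPM. Col4a2 had 31.71 and 1.52 CPM (3.70), in 18 of 48 and 6 of 31 cells. Col4a1 had 82.69 and 29.34 CPM (1.46), in 38 and 26 cells. Per kilobase, the level of Col4a1 was 2.54 times that of Col4a2 in cells with neither and 18.8 times in Gcg cells, so the type IV partners stood closer together there. Without the 2 Sox10 cells the log2 ratios were 3.62 for Col18a1, 2.73 for Col4a2 and 0.76, within 2-fold, for Col4a1.

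The remaining higher chains were Col26a1, Col27a1, Col14a1 and Col6a5. Col26a1, a collagen first described in testis and ovary, had 41.83 CPM in 21 of 48 cells with neither and 0.22 CPM in 2 of 31 Gcg cells (log2 ratio 5.13). Col27a1 had 31.78 and 8.65 CPM (1.76), in 58.3% and 25.8% of cells, although 1 cell with neither held 43.5% of its reads. Col14a1, a fibril-associated chain, had 12.38 and 0.22 CPM (3.45), with 97.04% of its reads in 3 cells; without the top cell of each group it no longer reached 10 CPM in either state (2.87). Col6a5 had 16.40 and 4.88 CPM; 1 cell held 83.2% of the reads, and the log2 ratio of 1.56 became −0.31 without the top cell of each group. The chains lower than in the Gcg cells of this set began with Col1a2 at 23.29 and 121.67 CPM (log2 ratio −2.34, 33.3% and 90.3% of cells). The others were Col4a4 at 1.43 and 25.58 CPM (−3.45), Col8a2 at 0.73 and 17.65 CPM (−3.43) and Col6a3 at 3.46 and 10.30 CPM (−1.34). Without the top cell of each group Col1a2 and Col8a2 remained lower, while Col4a4 (−2.61) and Col6a3 (−1.54) no longer reached 10 CPM in either state; 1 Gcg cell held 67.1% of the Col4a4 reads. The levels of Col8a2 and Col4a4 in Gcg cells of set 3 were not seen in set 2, where nearly all cells were Gcg cells. Split there by genotype and Gm12338 level, Col8a2 lay between 1.57 and 4.98 CPM and Col4a4 between 0 and 3.12 CPM. In set 3, Col1a1 and Col3a1 were under the limit in both states, at 5.89 and 1.93 CPM and at 2.53 and 1.12 CPM.

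The type II, IX and XVIII chains overlapped in part in single cells. All 4 of Col2a1, Col9a2, Col9a3 and Col18a1 reached 10 CPM in 18 of 48 cells with neither (37.5%, 95% Clopper-Pearson interval 23.95 to 52.6). They did so in 2 Ngn3KO Gcg cells of set 2 (0.995%) and in no cell of the other 4 groups. The upper limit of the same interval allows shares of up to 12.8% in Ngn3KO Cpa1 and 21.8% in Neurod1OE Cpa1 cells. For Neurod1OE Gcg cells it allows 3.27% in set 2 and 11.2% in set 3. The intervals treat cells of 1 sample as independent. All 4 chains had been called higher in cells with neither than in Gcg cells of set 3, so these counts are a description. Every Gcg cell of set 3 was under 10 CPM of Col2a1, so none there could reach it for all 4. Col2a1 and Col9a3 were read together in 22 cells with neither, out of 27 with Col2a1 and 31 with Col9a3. Over the 48 cells the rank correlation of Col2a1 was 0.66 with Col9a3, 0.53 with Col18a1, 0.43 with Col9a2 and 0.01 with Col4a1; that of Col18a1 was 0.52 with Col9a3 and 0.16 with Col9a2. For Col2a1 it was 0.54 with Sox9 (a transcription factor of pancreatic progenitors and of cartilage) and 0.50 with the duct gene Spp1, against −0.47 with the endocrine granule gene Chga, −0.42 with Neurod1 and 0.08 with the cell's total reads. Col26a1 followed another course, with 0.32 for Fev, an endocrine precursor factor, and 0.00 for Sox9. These correlations are a description of cells that share 1 sample and sparse counts.

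The cells at the top of Col2a1 show how its companions varied. The highest cell had 1111 CPM of Col2a1 with 1867 CPM of Col18a1 and 436 CPM of Col9a3, and 18.8 CPM of Sox9. The next had 1051 CPM of Col2a1 with 717 CPM of Col9a2 and 603 CPM of Col9a3, and 97.3 CPM of Sox9. In the cell after it, 1043 CPM of Col2a1 went with 653 CPM of Col18a1 and 1334 CPM of Sox9. In the same order, these 3 cells had 14.6, 15341 and 4988 CPM of Spp1 and 8.35, 766 and 84.7 CPM of Epcam. All 3 had Neurod1 reads, at 231.8, 169.05 and 130.6 CPM, and none had more than 4.18 CPM of Col1a2.

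**Figure D4:**
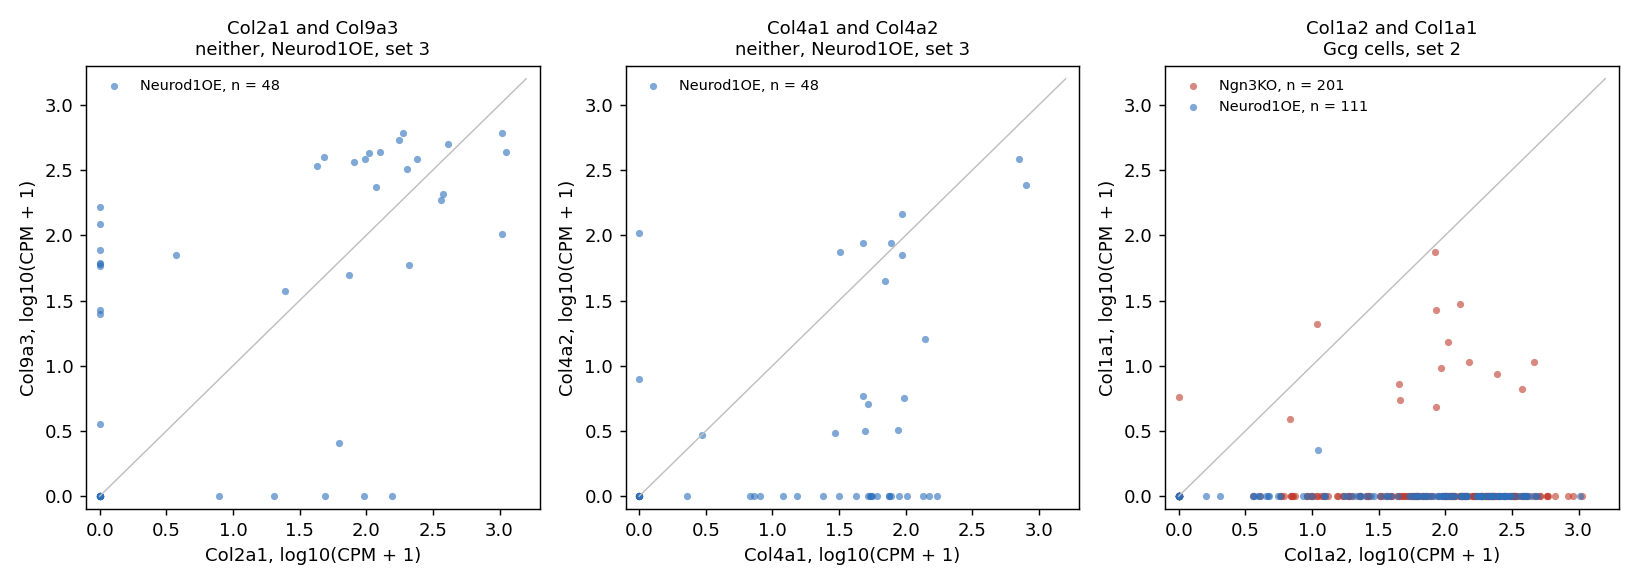
CPM of partner chains in single cells on log10(CPM + 1) axes: Col9a3 against Col2a1 and Col4a2 against Col4a1 in 48 Neurod1OE cells with neither, and Col1a1 against Col1a2 in Ngn3KO and Neurod1OE Gcg cells of set 2; the grey line marks equal CPM. Col2a1 and Col9a3 rise away from the axes together in 22 cells, while most Gcg cells with Col1a2 lie on the axis where Col1a1 is 0.

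Markers of cell type also moved with these values. In cells with neither and in Gcg cells of set 3, the 9 duct and trunk markers summed to medians of 237 CPM (17.4 to 15551) and 91.5 CPM (22.4 to 1298), the 16 pan-endocrine markers to 5728 CPM (91.01 to 21414) and 13927 CPM (5457 to 23822), the 8 epithelial markers to 348 CPM (10.4 to 8081) and 1543 CPM (175.8 to 3206), and the 15 mesenchyme markers to 22.6 CPM (0 to 3643) and 4.38 CPM (0 to 79.7). The 5 pericyte markers had a median of 0 in both, with highest cells of 2257 and 84.8 CPM, and the 8 endothelium markers medians of 0.615 and 2.29 CPM, with highest cells of 414 and 188.9 CPM and Cdh5 at 0 in both groups. No duct, pan-endocrine or epithelial marker was at 0 in either group; of the mesenchyme markers, 6 were at 0 in cells with neither (Twist1, Nkx3-2, Barx1, Tcf21, Thy1 and Acta2) and 7 in Gcg cells, and Sox10 was at 0 in Gcg cells. Their part in the collagen differences was not tested. Within male cells (33 with neither, 26 Gcg) the counts of higher and lower chains were again 11 and 4, a subset chosen after the data were seen. The share of all genes past 2-fold in that subset is not given here.

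In the lists of matrix genes, called members are set against 19.2% of all genes higher and 12.3% lower. Of 11 measured basement membrane partners, 9 were higher and 1 lower in cells with neither than in Gcg cells, with Sparc, a collagen-binding matrix protein, at 627 and 36.9 CPM and Lama5 at 62.7 and 8.42 CPM. Nid1 (nidogen, which links laminin to type IV collagen) had 13.6 and 1.25 CPM, but 3.46 CPM in cells with neither once the 2 Sox10 cells were left out, and was then not measured. Without those cells 8 of 10 basement membrane partners were higher, and the counts of the other lists in this paragraph did not change. All 4 measured degradation genes were higher, Mmp14 at 68.5 and 1.30 CPM and Mmp2 at 101.2 and 8.42 CPM among them. Of 7 fibril partners, 5 were higher and none lower, with the microfibril protein Mfap4 at 446 and 12.54 CPM and fibromodulin (Fmod) at 27.2 CPM against no read. Of 13 folding genes 3 were higher, a share near that of all genes: Serpinh1 at 345 and 49.8 CPM, Ppib at 299.9 and 130.6 CPM and P4ha2 at 37.1 and 16.5 CPM. None of 4 processing genes and neither of 2 receptors was past 2-fold; Bmp1 had 182.1 and 212 CPM.

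A pair of cells with neither had the highest Col4a2 levels of all cells. They were the third and the fourth cell of the series by Col1a1 plus Col3a1, at 123.08 and 112.4 CPM, and both were Neurod1OE cells of set 3. They had 803 and 705 CPM of Col4a1, 241 and 385 CPM of Col4a2, and 1141 and 188.5 CPM of Col18a1, together 31.4% of the Col4a1 reads and 47.9% of the Col4a2 reads of Neurod1OE in set 3, from 2 of 95 cells. They also held 94.4% of its Col5a2 and 57.4% of its Col14a1 reads. Sox10, a transcription factor of Schwann cells and their precursors, stood at 982 and 484 CPM in them, Vim at 1796 and 3339 CPM, and the epithelial marker Epcam at 16.8 and 1.86 CPM. Pdgfra and Pecam1 had no read in either.

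The genotype comparison over all cells of set 3 put 28 Ngn3KO cells, 27 of them Cpa1 cells, against 95 Neurod1OE cells of mixed state, so genotype and cell state cannot be told apart there. Of 12 chains measured, 1 was higher in Ngn3KO and 10 lower, against 5.96% and 33.3% of 10445 genes; the median log2 ratio was −3.65 for the chains and −0.59 for all genes. Col11a1, the chain of Cpa1 cells, was the higher one (40.55 CPM in Ngn3KO, 7.34 CPM in Neurod1OE, log2 ratio 2.32). The lower ones ran from Col18a1 (−1.56) and Col1a2 (−1.89) to Col2a1 (−5.72). In the machinery lists 2 genes were higher and 5 lower of 13 folding genes, 2 of 3 processing, 1 of 2 receptor, 3 of 4 degradation, 1 of 7 basement membrane and 5 of 7 fibril partner genes were lower, and none of these last 5 lists had a higher member.

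Most Col1a1 and Col3a1 reads of the series lay in 2 cells. Both were Ngn3KO cells of set 3 and lay above the limit of 1000 CPM of Col1a1 plus Col3a1 that set them apart from every group level given so far; since the limit used these genes, their levels are a description. The first had 6764 CPM of Col1a1, 5969 CPM of Col3a1 and 2438 CPM of Col1a2, the second 4641, 4341 and 3130 CPM. The next cells of the series had 123.08 and 112.4 CPM of Col1a1 plus Col3a1. The 2 cells, 0.446% of all reads, held 94.2% of all Col1a1 reads, 97.5% of Col3a1, 11.2% of Col1a2, 47.4% of Col5a1, 69.05% of Col5a2, 60.2% of Col6a1 and 76.7% of Col6a2. Of the 44 chains, 25 had reads in them and 19 none; Col2a1, Col9a1 and Col11a2 were among the 19.

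**Figure D5:**
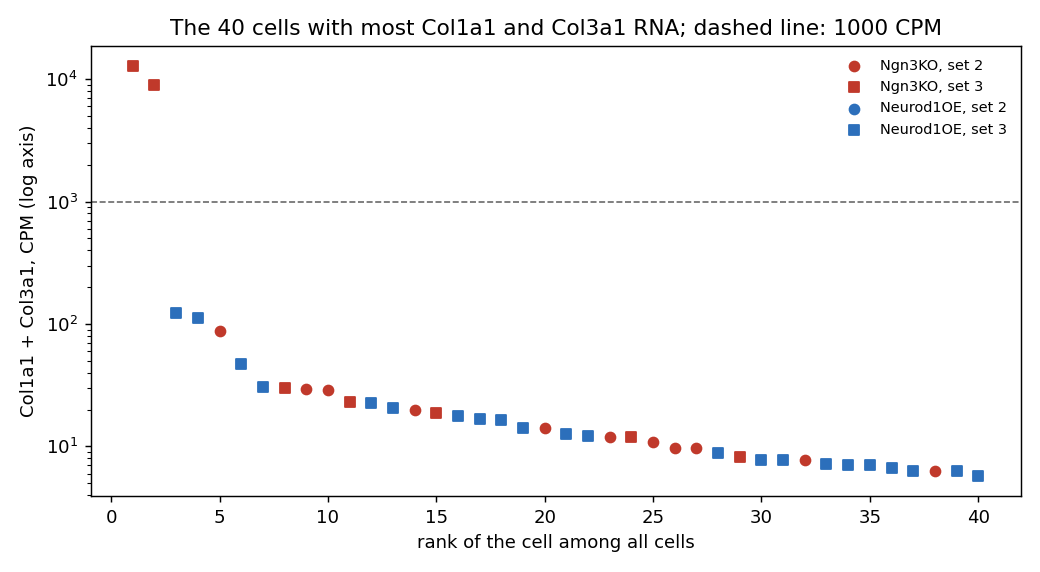
The 40 cells with the most Col1a1 plus Col3a1 RNA, by rank, on a log10 CPM axis; colour is the genotype and shape the set, and the dashed line is 1000 CPM. The first 2 cells, both Ngn3KO of set 3, stand at 12733 and 8982 CPM, far above the third at 123.08 CPM.

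These 2 cells carried markers of several cell types at once. Their mesenchyme marker sums, 3432 and 4785 CPM, stood against 75.01 CPM in the median of the other Ngn3KO Cpa1 cells, with Dcn at 1936 and 1090 CPM, Lum at 587 and 1420 CPM, Cxcl12 at 461 and 645 CPM, Pdgfra at 45.4 and 64.5 CPM and Tcf21 at 119.1 and 121.6 CPM. Acinar markers summed to 15852 and 31406 CPM in the same cells, with Cpa1 at 3793 and 9439 CPM and Epcam at 387 and 206 CPM. Mesenchymal Foxf1, Nkx3-2 and Tagln had no read in either, nor had Twist1, Barx1 and Thy1 in the first. Pan-endocrine markers summed to 7941 and 494 CPM, with Chga at 4837 and 54.6 CPM, beside a median of 124.8 CPM in the other Ngn3KO Cpa1 cells. The 5 pericyte markers summed to 199.9 and 268 CPM. Of 8 endothelium markers, 7 had no read in the first cell and 6 none in the second, where Egfl7 had 46.8 and 79.4 CPM and Esam 34.7 CPM in the second. The part of any of these in the collagen levels was not tested. The collagen chaperone Serpinh1 stood at 428 and 784 CPM and the crosslinking enzyme Lox at 141.8 and 467 CPM. Their totals were 705197 and 402918 reads, beside a median of 728074 over the Ngn3KO cells of that set, and each well was labelled as 1 cell; whether more than 1 cell's RNA entered a well was not tested. Putting them back gave Col1a2 a log2 ratio of 1.53 over all cells of set 3, against −1.89 without them. It also gave 8 chains higher in Ngn3KO of 19 measured, for which the share of all genes is not given here.

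The 27 chains never measured included all of types III, V, VII, X, XII, XIII, XV, XVI, XVII, XIX, XX, XXII to XXV and XXVIII. In Gcg cells of set 2 they lay between 0 and 4.91 CPM in Ngn3KO and between 0 and 4.26 CPM in Neurod1OE, with medians of 0.68 and 0.20 CPM, Col4a5 being the highest in both. In Ngn3KO Cpa1 cells and in cells with neither the highest was Col15a1, the other chain of the endostatin family, at 5.10 and 9.68 CPM. Fewest reads overall went to Col10a1, the chain of hypertrophic cartilage, with 2 in all cells, and Col24a1, with 6. For such chains a level under 10 CPM says that they were scarce at this depth, not that they were absent.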

How the data were processed

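The deposited values were read counts per gene and cell of 447 single cells: 205 Ngn3KO and 117 Neurod1OE cells in set 2 (201 and 111 of them Gcg cells), and 30 and 95 in set 3. Per the submitters' processing notes, reads were handled with Trimmomatic 0.39, HISAT2 2.1.0 and featureCounts 2.0.0 on mm10 before the authors deposited these counts; the annotation and strand setting are not given in the sources used here. Spike-in rows were left out of totals.

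Counts were summed within groups and scaled to CPM; log2 ratios had 1 CPM added, and a chain past 2-fold was called. Without replicates no test was made; exact Poisson and Clopper-Pearson 95% intervals cover counting error only, reads not being independent molecules. A count of 0 was set against a floor of 3 counts. For shares, cells were thinned to 165298 reads (45 shallower cells left out). Cells with 1000 CPM or more of Col1a1 plus Col3a1 were described apart. Levels per kilobase used the GENCODE M21 transcript with the longest coding sequence; all 44 chains were found there, and 36411 of 40824 genes. Values are given for each chain measured in any group of 10 or more cells and for Col1a1, Col1a2, Col3a1, Col4a1, Col4a2 and Col18a1, and for up to 4 genes of each list with the largest ratios; other partner chains, chains at the ends of a range and markers of single cells were named after their values were seen. The members and lists were chosen with earlier results of these data known. Alternatives were TMM (edgeR 4.0.16) and DESeq2 1.42.0 scaling factors, equal cell weights, no filter, other state levels, and subsets of cells. The calculations were tested on simulated data and ran in Python 3.11.15 with numpy 2.4.6, scipy 1.17.1 and pandas 2.3.3, and R 4.3.3. Some marker genes are not reported here.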

Additional observations from a re-analysis of the deposited data

How the results depend on the processing

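No paired analysis was possible because the numbers in the titles name single cells and not animals. Counts of chains past 2-fold moved by more than 1.5 times as follows, each with the cause not tested unless the setting itself removes or adds cells or chains. With no filter on low values, higher and lower counts were 7 and 2 over set 2 (1 and 1 with the filter), 3 and 23 over set 3 (1 and 10), 3 and 5 in Cpa1 cells (0 and 2); higher chains were 5 in Gcg cells of set 2 (1), lower chains 14 for Cpa1 over Gcg cells (8), and higher chains 23 for cells with neither over Gcg cells (11). Without the top cell of each gene, no chain was higher in Gcg cells of set 2, 0 were lower over set 2 and in Cpa1 cells, 5 were lower for Cpa1 over Gcg cells, and 2 (not 4) for cells with neither over Gcg cells. With equal cell weights, and within cells negative for Gm12338, 0 chains were higher in set 2, over all cells and in Gcg cells alike, and 0 in female Gcg cells; within Gm12338-positive cells 2 were lower in each. TMM and DESeq2 scaling each left 1 lower chain in Cpa1 cells. With the 2 cells rich in Col1a1 and Col3a1 put back, 8 chains were higher over set 3 and in Cpa1 cells, where 1 was lower. The share of all genes past 2-fold under these settings is not given here, so these counts have no background beside them. Of 578 log2 ratios under alternatives, 311 moved beyond their counting error and 261 did not. The other 6 had been past 2-fold and changed sign. Sign changes of ratios within 2-fold were not counted apart and lie among the 311 and 261. Of 80 shares of cells, 45 moved when a level of 10 CPM was asked for and 9 with thinned cells. Among the 6 were Col1a2 over set 3 with the cells rich in Col1a1 and Col3a1 put back (1.53). Between genotypes in Cpa1 cells they were Col4a1 without the top cell (0.98) and Col9a3 with states from 2000 CPM (0.17). The rest were Col9a3 for Cpa1 over Gcg cells without the top cell (−0.72) and from 2000 CPM (−1.29), and Col6a5 for cells with neither over Gcg cells without the top cell (−0.31). The subsets by sex were chosen after the data were seen. Depth limits chains under 10 CPM, and 1 sample per genotype leaves animal-to-animal spread unknown.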
